A study of Rattus norvegicus with 8 samples.

Results

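The citric acid cycle enzymes described here are 9 genes, Cs, Idh2, Idh3a, Idh3b, Idh3g, Ogdh, Suclg1, Fh and Mdh2. They were chosen by name and by no threshold on their values, although earlier results of these data were known. All 9 were measured, among 25128 features tested, of which 9977 carry a gene symbol. The samples are livers of male Wistar/ST rats that all ate a high-fat diet and drank fructose-rich water. The Eucommia group (4 arrays) also drank an extract of Eucommia ulmoides leaves for 5 weeks, and the Control group (4 arrays) did not. The animals' age and the dose of extract are not given in the sources used here, and no group on ordinary feed was analysed here. Each array measured total liver RNA, so fewer cells of a type and less RNA per cell cannot be told apart.

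The cycle runs in the mitochondrial matrix. Citrate synthase joins acetyl-CoA, made from fatty acids or pyruvate, to oxaloacetate, and the following enzymes oxidise the product back to oxaloacetate while NADH and reduced flavin are passed to the respiratory chain. In liver the cycle also gives up citrate for lipid synthesis and malate or oxaloacetate for glucose synthesis, and takes up carbon from amino acids. The NAD-linked isocitrate dehydrogenase is built from catalytic alpha subunits (Idh3a) with beta and gamma subunits (Idh3b, Idh3g), whereas Idh2 is a separate mitochondrial enzyme that makes NADPH.

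A level is the log2 of a probe's processed signal minus the array's 75th percentile, so 0 is the signal at that percentile. Levels of different probes are not comparable, because each probe binds with its own strength. Spots well above background made up 59.8% ± 1.17 of non-control spots on Control arrays and 70.7% ± 1.16 on Eucommia arrays (SD, n = 4). Every member was well above background on all 8 arrays, and none of its spots was saturated or marked as an outlier. The Control arrays shared 1 slide and scan session and the Eucommia arrays another, and an effect of slide therefore cannot be told apart from one of the extract. The labels number the arrays without naming animals, and a p-value here describes array-to-array spread, which may be technical.

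Of the 9 enzymes, 1 was higher in the Eucommia group and 0 were lower, against 18.4% of all features called higher and 6.17% called lower (24.6% in all; limma, adjusted p below 0.05), whereas with median centring 0 were higher and 6 lower. Under that centring 15.1% of all features were called higher and 31.7% lower. The member that rose was Idh3a, by a log2 value of 0.43 ± 0.10 (SE), which is 1.35-fold with a 95% interval of 1.15 to 1.58. The other 8 had log2 differences from -0.22 to 0.05 and adjusted p from 0.244 to 0.823. Their 95% intervals all held 0 and ran from -0.50 to 0.35, so falls to 0.709-fold or rises to 1.27-fold lie within the reach of at least 1 of them. The median over the members was -0.07, beside 0.02 over all features and -0.04 over the 8960 features brighter than the 75th percentile. Of those brighter features 3.73% were called higher and 5.96% lower, and 8 of the 9 members, all but Ogdh, are among them. Groups did not overlap at 1 of 9 members, against 28.5% of all features and 17.1% of the brighter ones. At 0 of 9 members did the Eucommia arrays all lie below the Control arrays, against 8.68% of all features. Higher calls made up 74.9% of all called features, but 64.8% with cyclic loess, 59.2% with normexp and quantile normalization, 58.4% with quantile normalization and 32.3% with median centring. Among the filters on dim probes, the share was 62.8% with probes above background on all 8 arrays and 42.2% with no filter.

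**Figure D1:**
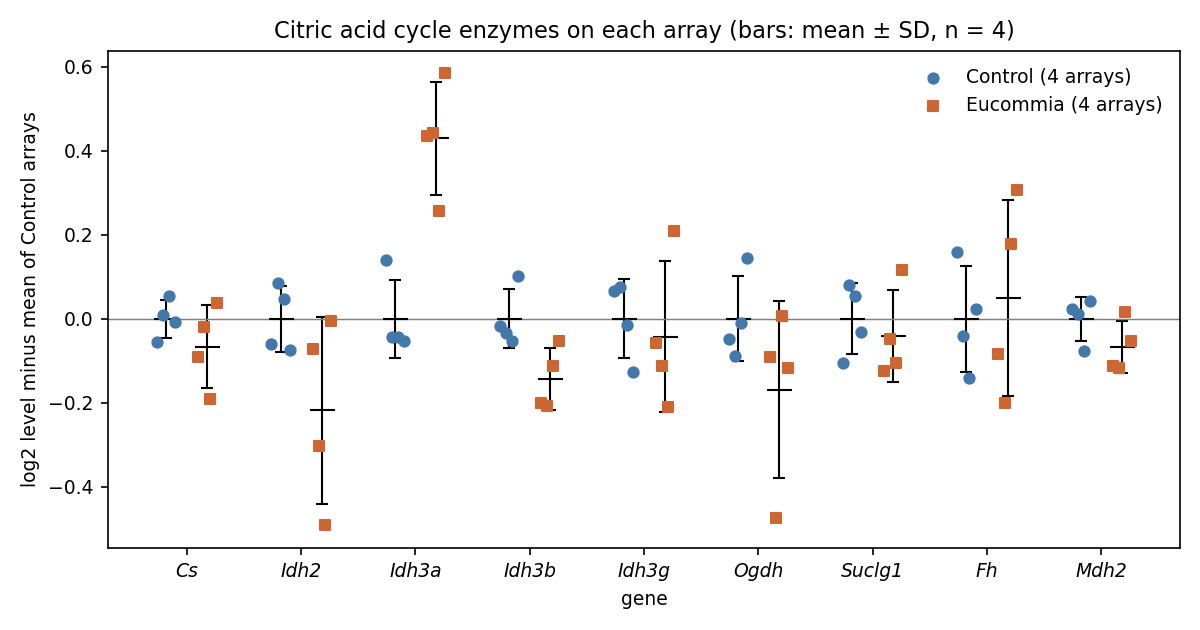
Level of each citric acid cycle enzyme on each array, as log2 level minus the gene's mean on the Control arrays (y axis), for Control (circles) and Eucommia (squares); bars show mean ± SD, n = 4. For Idh3a all 4 Eucommia arrays lie above all 4 Control arrays, while the groups overlap for the other 8 genes.

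Idh3a encodes the catalytic subunit of the NAD-linked isocitrate dehydrogenase, the step that makes 2-oxoglutarate from isocitrate. Its levels were 0.24, 0.05, 0.05 and 0.04 on Control arrays 1 to 4. They were 0.53, 0.54, 0.35 and 0.68 on Eucommia arrays 1 to 4. The lowest Eucommia array thus lay above the highest Control array, and the Control array that stood highest was replicate 1. The means were 0.10 ± 0.09 for Control and 0.53 ± 0.13 for Eucommia (SD, n = 4), with an adjusted p of 0.0127 by limma. Over 20 of the 21 alternatives the log2 difference ran from 0.38 to 0.49 and passed, with adjusted p up to 0.0481. The deposited table, the filters on dim probes, the probe rules, the trended variance and the replicate block could alter at most the adjusted p. Under these the log2 difference stayed at 0.43. With median centring it was 0.17 and did not pass (adjusted p = 0.237). The gene has a single probe on the array (A_43_P12879, designed on NM_053638). Its raw signals were 236 to 328 on the Control and 292 to 351 on the Eucommia arrays, which overlap before scaling. Of the 2340 features within a log2 value of 0.5 of its mean level, 7.14% were called higher and 5.77% lower, and 6.75% had a log2 difference at least as large as that of Idh3a.

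Idh3b, the beta subunit, is needed for the activity of the same enzyme. Its levels were 4.93, 4.91, 4.89 and 5.04 on the Control arrays and 4.74, 4.73, 4.83 and 4.89 on the Eucommia arrays. The groups touched at 4.89, and the difference was -0.14 ± 0.08 (SE, adjusted p = 0.268). Idh3g, the gamma subunit, through which activators act, had 4.68, 4.69, 4.60 and 4.49 on the Control arrays and 4.56, 4.50, 4.41 and 4.83 on the Eucommia arrays. These groups overlapped over most of their range, and the difference was -0.04 ± 0.11 (SE, adjusted p = 0.823). The Idh3g value was 0.02 with cyclic loess and 0.01 without Eucommia replicate 3.

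Subtracting one gene from another on the same array removes any factor that scales a whole array. It does not remove an effect of slide that differs with signal strength, which was not tested. Raw signals were 236 to 351 for Idh3a, 6048 to 8554 for Idh3b and 4853 to 7169 for Idh3g. The within-array difference of Idh3a over Idh3b was larger by 0.57 on the Eucommia arrays (SD 0.13 on Control and 0.14 on Eucommia arrays, n = 4 each). That of Idh3a over Idh3g was larger by 0.47 (SD 0.09 and 0.07). In both pairs no Eucommia array overlapped a Control array. Idh3b over Idh3g moved by -0.10 with overlapping groups (exact permutation p = 0.371). For each pair with Idh3a the 2-sided exact permutation test gave p = 0.0286, the smallest that 4 against 4 arrays allow, and 0.0571 after Benjamini-Hochberg adjustment over the 6 pairs of enzymes compared, which is not below 0.05. Whatever the size of the change, that adjusted p could be lower only if further pairs also reached the smallest p. The pairs with Idh3a share its single probe and are not separate results. The differences stayed between 0.49 and 0.64 for Idh3b and between 0.42 and 0.50 for Idh3g over all 14 alternatives run. Under median centring, and with the percentile taken over probes detected on all arrays, they are the same by construction, unlike the difference of Idh3a alone. The mean over probes cannot change them either, because each of the 3 genes has a single probe.

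**Figure D2:**
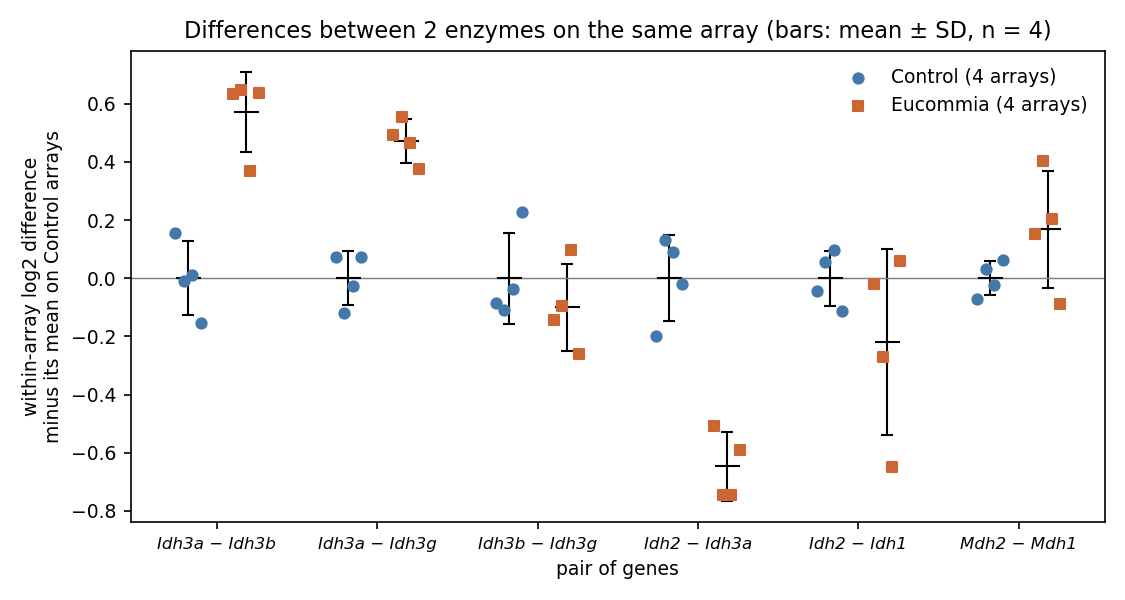
Within-array log2 difference between 2 enzymes, minus its mean on the Control arrays (y axis), for 6 pairs; circles are Control arrays, squares Eucommia arrays, and bars mean ± SD, n = 4. The groups separate in the 3 pairs that hold Idh3a and overlap in the other 3. No pair passed 0.05 by exact permutation after adjustment over the pairs. The lowest adjusted p, 0.0571, is the smallest possible when 3 of 6 pairs reach the smallest p.

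Idh2 encodes the NADP-linked isocitrate dehydrogenase of mitochondria, which supplies NADPH for the removal of peroxides. By its brighter probe the levels were 5.36, 5.51, 5.47 and 5.35 on the Control arrays and 5.35, 5.12, 4.93 and 5.41 on the Eucommia arrays. Eucommia replicates 2 and 3 lay below every Control array, while replicates 1 and 4 lay at or within their range. The difference was -0.22 ± 0.12 (SE) and did not pass (adjusted p = 0.244). Its dimmer probe (A_44_P365653) gave 0.87, 0.89, 0.90 and 1.07 on the Control arrays and 0.70, 0.48, 0.49 and 0.64 on the Eucommia arrays, and here the groups did not overlap. That probe had a log2 difference of -0.36 ± 0.09 (SE) and passed when each probe was tested on its own (adjusted p = 0.0235 by limma). It also passed with every other scaling tried, from -0.61 with median centring to -0.26 with normexp. The brighter probe passed with median centring alone (-0.47, adjusted p = 0.0135), so both probes of Idh2 pointed down but they disagree on the call.

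Idh2 and Idh3a carry out the same oxidation with different cofactors. The within-array difference of Idh2 over Idh3a fell by 0.65 on the Eucommia arrays (SD 0.15 on Control and 0.12 on Eucommia arrays, n = 4), with groups that did not overlap (exact permutation p = 0.0286, adjusted 0.0571). Against Idh1, the cytosolic NADP-linked enzyme, Idh2 moved by -0.22 with overlapping groups (exact permutation p = 0.286, adjusted 0.343). With the mean over the probes of a gene that value was -0.29 and the adjusted exact permutation p over the pairs 0.0429. Idh1 itself had a log2 difference of 0.0022 ± 0.09 (SE).

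Cs, citrate synthase, which opens the cycle, had levels from 4.03 to 4.14 on the Control arrays and from 3.89 to 4.12 on the Eucommia arrays. These ranges overlap, and the difference was -0.07 ± 0.09 (SE, adjusted p = 0.628), with 0.06 under normexp. The dimmer probe of Cs gave -0.11 ± 0.10 and did not pass either (adjusted p = 0.494).

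Ogdh, the first component of the 2-oxoglutarate dehydrogenase complex, was the dimmest member, with raw signals of 43.0 to 75.4. Its levels were -1.97, -2.01, -1.94 and -1.78 on the Control arrays and -2.02, -2.40, -1.92 and -2.04 on the Eucommia arrays. Eucommia replicate 2 stood low and the other 3 lay within or just under the Control range, so the difference of -0.17 ± 0.12 (SE) did not pass (adjusted p = 0.363). Without Eucommia replicate 2 it was -0.07. Dlst and Dld, the other components of the complex, had log2 differences of 0.08 ± 0.09 and 0.0031 ± 0.09, neither past the threshold.

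Suclg1, the alpha subunit of succinyl-CoA ligase, was a bright member, with raw signals of 49718 to 60642. Its levels ran from 7.76 to 7.95 on the Control arrays and from 7.75 to 7.99 on the Eucommia arrays, almost the same range. The difference was -0.04 ± 0.09 (SE, adjusted p = 0.796), and 0.06, 0.03 and 0.02 with quantile normalization, cyclic loess and normexp. The beta subunits that pair with it had 0.13 ± 0.11 (Suclg2, the GTP-forming enzyme) and 0.08 ± 0.12 (Sucla2, the ATP-forming enzyme). Neither passed, although Suclg2 had 0.25 and an adjusted p of 0.0456 with normexp.

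Fh, fumarase, which hydrates fumarate to malate, had levels of 6.50, 6.30, 6.20 and 6.36 on the Control arrays. On the Eucommia arrays they were 6.26, 6.14, 6.52 and 6.65, the widest spread in the group among the members (SD 0.23). Low and high arrays occurred in both groups, and the difference was 0.05 ± 0.13 (SE, adjusted p = 0.823). The other probes of Fh had -0.13 ± 0.13 and -0.15 ± 0.18, and the mean over the 3 probes was -0.07, so the sign depends on the probe.

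Mdh2, malate dehydrogenase, closes the cycle and also serves the malate shuttle. It had levels of 4.67 to 4.79 on the Control arrays and 4.63 to 4.76 on the Eucommia arrays, a difference of -0.07 ± 0.08 (SE, adjusted p = 0.603). Its cytosolic counterpart Mdh1 had -0.23 ± 0.12 (adjusted p = 0.213). The within-array difference of Mdh2 over Mdh1 moved by 0.17, with overlapping groups (exact permutation p = 0.171, adjusted 0.257). Without Eucommia replicate 4 it was 0.25, and the adjusted exact permutation p over the pairs was 0.0429.

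By the brightest probe of each gene, the SD was larger in the Eucommia group for 9 of 9 members, against 41.3% of all features and 50.6% of those brighter than the 75th percentile. The gap was small for some, such as Idh3b (0.070 on Control and 0.074 on Eucommia arrays), and the dimmer probe of Cs went the other way (0.115 and 0.111). The difference in spread was not tested. Within the Eucommia group, replicate 4 held the highest value for 7 of the 9 members and the lowest for 0, while replicates 2 and 3 each held the lowest for 4. The median deviation of the members from their Control means was 0.04 on Eucommia array 4 and -0.09, -0.12 and -0.11 on arrays 1, 2 and 3. Without Eucommia replicate 4 the median difference over the members was -0.10, and without replicate 3 it was -0.02.

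**Figure D3:**
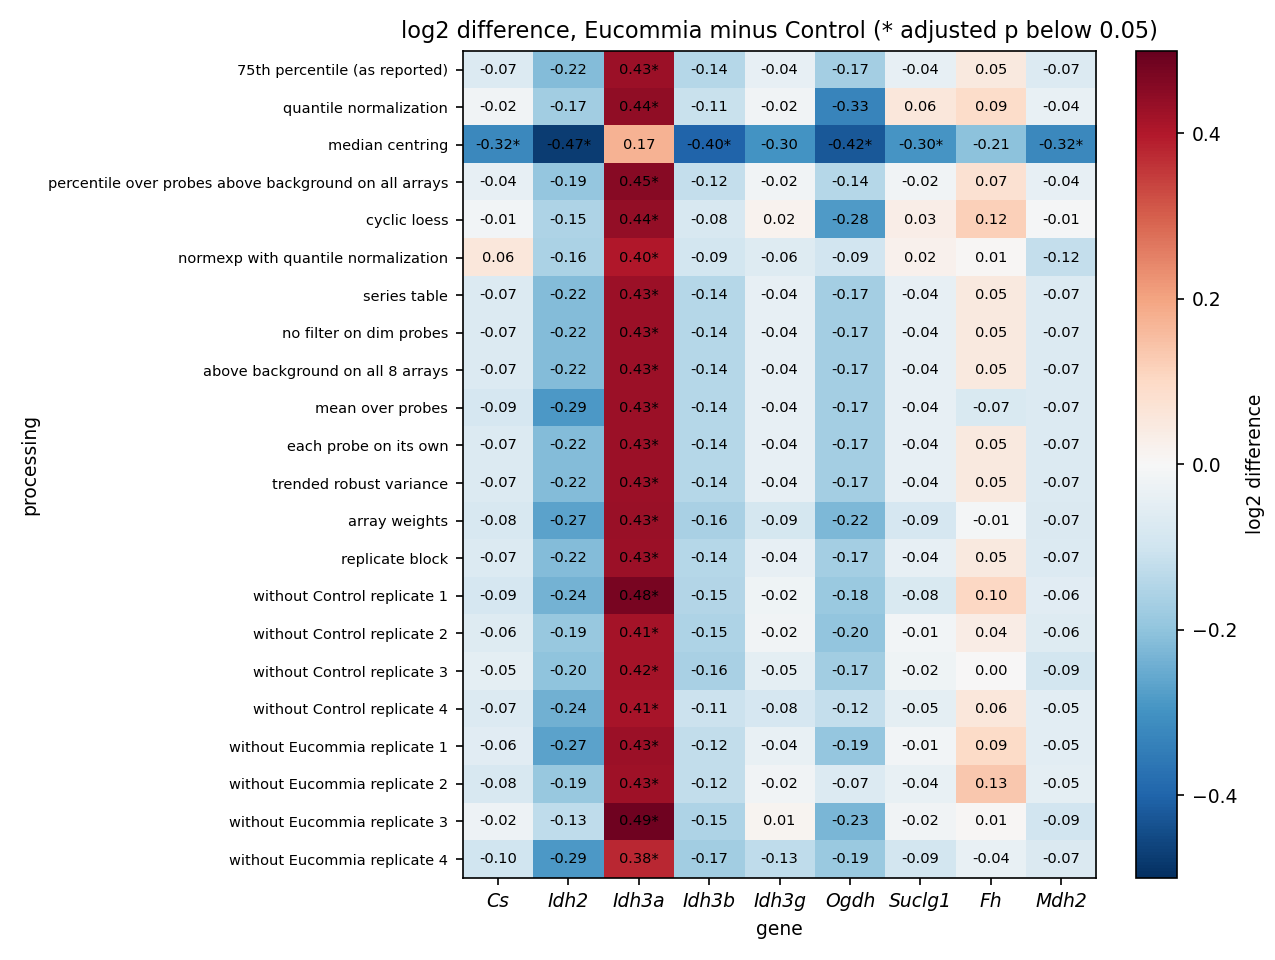
Log2 difference, Eucommia minus Control, of each member (columns) under each way of processing (rows); colour and printed number give the value, and a star marks an adjusted p below 0.05 by limma. Idh3a is starred in every row but median centring, where 6 other members are starred at values from -0.47 to -0.30 and Idh3a stands at 0.17.

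Median centring subtracts a constant from each array and so shifts all differences alike. It moved the median of all features by -0.26, and relative to that median the members stood at -0.09 both with it and without it. With quantile normalization and cyclic loess the members' median stood at 0.0051 and -0.0061 relative to that of all features.

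Among the other genes of the cycle, 9 of the 10 listed were measured. Of these, 0 passed in either direction (limma), against 24.6% of all features. All 9 were brighter than the 75th percentile, where 3.73% of features were called higher and 5.96% lower. An unadjusted limma p below 0.05 was found for 1 of them. That gene was Sdha, the flavoprotein of succinate dehydrogenase, with levels of 7.21 to 7.39 on the Control and 7.02 to 7.18 on the Eucommia arrays. The groups did not overlap, and the log2 difference was -0.23 ± 0.09 (SE, adjusted p = 0.0922). The remaining subunits Sdhb, Sdhc and Sdhd had 0.03 ± 0.11, -0.01 ± 0.10 and -0.09 ± 0.10. The median over these 9 genes was 0.03. Sdhaf2, which attaches flavin to Sdha and was the single assembly factor measured, had -0.02 ± 0.10.

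**Figure D4:**
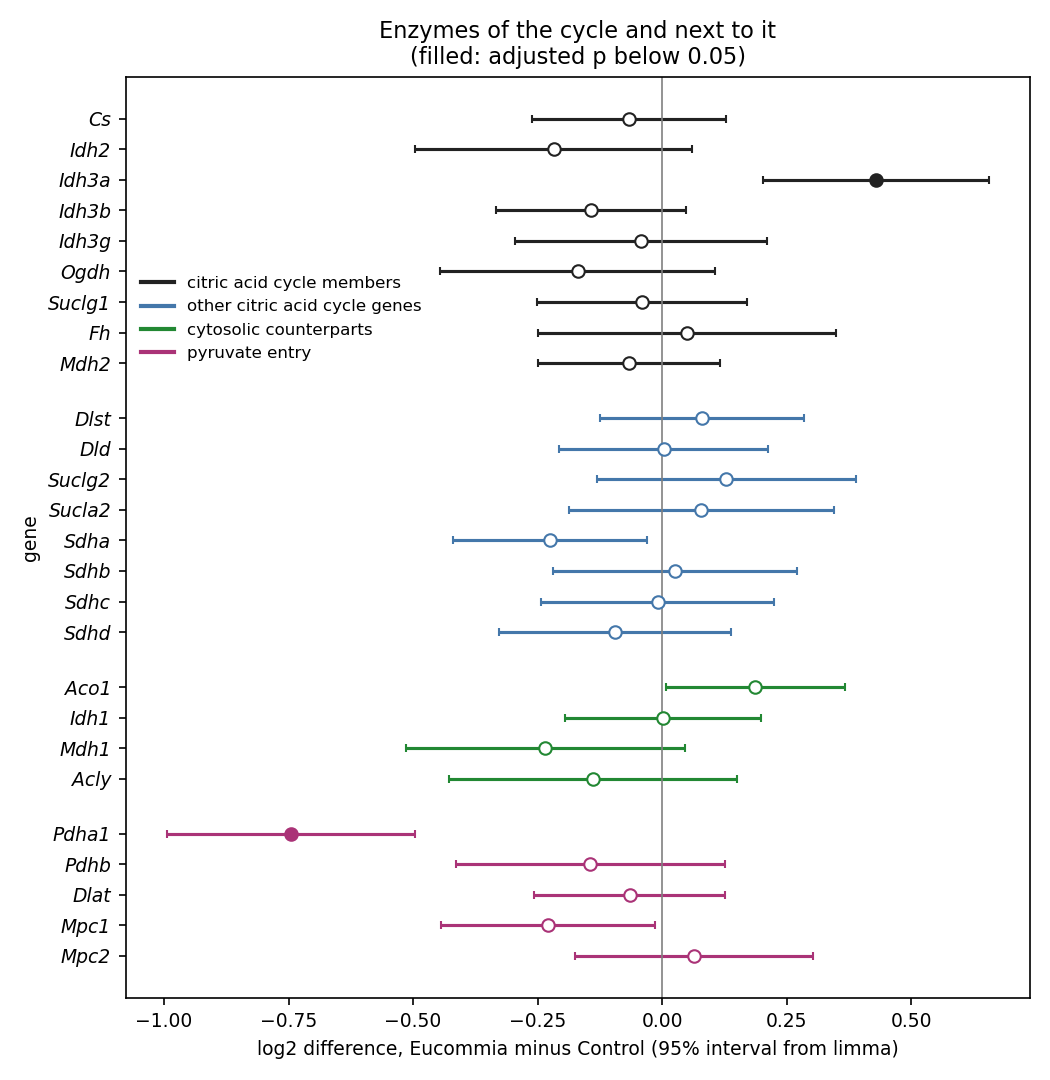
Log2 difference, Eucommia minus Control, with its 95% interval from limma (x axis) for the members and for named genes of 3 related lists; filled points have an adjusted p below 0.05. Idh3a at 0.43 and Pdha1 at -0.74 are the filled points, and most intervals cross 0; with median centring Idh3a is at 0.17 and does not pass.

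Genes next to the cycle were read from the same fit, in which 18.4% of all features were called higher and 6.17% lower. Of the features brighter than the 75th percentile, where all measured pyruvate entry genes lie, 3.73% were called higher and 5.96% lower. In pyruvate entry 1 of 5 measured genes was lower and 0 higher. Pdha1, the alpha subunit of pyruvate dehydrogenase, stood at 2.99, 3.23, 2.96 and 3.18 on the Control and at 2.24, 2.23, 2.38 and 2.53 on the Eucommia arrays. All its Eucommia values lay below all its Control values, and the log2 difference was -0.74 ± 0.11 (SE, adjusted p = 0.00102), past the threshold under all 21 alternatives. The alternatives that could not alter the difference of Idh3a could not alter that of Pdha1 either. Mpc1, a subunit of the pyruvate carrier, had -0.23 ± 0.09 (adjusted p = 0.119).

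Among 9 measured genes that fill or drain the cycle, 1 was lower and 0 higher, against 6.17% and 18.4% of all features. Most of them were brighter than the 75th percentile, where 5.96% of features were called lower and 3.73% higher. The gene called lower was Pck2, the mitochondrial phosphoenolpyruvate carboxykinase, with -0.47 ± 0.12 (SE, adjusted p = 0.0176). It did not pass without Eucommia replicate 1 (0.0514) or 3 (0.0518). Got2, the mitochondrial aspartate aminotransferase, had -0.28 ± 0.10 (adjusted p = 0.0875). Its adjusted p was below 0.05 under 4 of the 21 alternatives, namely median centring (0.00851), trended robust variance (0.0471), array weights (0.0497) and the fit without Eucommia replicate 4 (0.0463). The median of the 9 genes was -0.20. Among 4 cytosolic counterparts of cycle enzymes and citrate users 0 passed, with 1 at an unadjusted p below 0.05: Aco1, the cytosolic aconitase, had 0.19 ± 0.08 (adjusted p = 0.124), and -0.07 with median centring.

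Among 4 measured mitochondrial carriers of cycle intermediates 0 passed, with 1 at an unadjusted p below 0.05. Slc25a1, the citrate carrier, had -0.24 ± 0.09 (SE, adjusted p = 0.101), and the adjusted p was below 0.05 with median centring (0.00525) and with normexp (0.0392). Slc25a10, the dicarboxylate carrier, had 0.37 ± 0.22 (adjusted p = 0.264). Of 5 measured regulators of mitochondrial biogenesis 0 passed, and 0 had an unadjusted p below 0.05. Gabpa had -0.21 ± 0.13 and Esrra -0.06 ± 0.10, and Ppargc1a did not pass the filter on dim probes. With median centring Gabpa (adjusted p = 0.0238), Esrra (0.0357), Mdh1 (0.0204) and Mpc1 (0.00632) were lower, and under the other 20 alternatives none of these 4 passed.

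All 8 hepatocyte markers were well above background on every array, with Alb at 9.68 to 10.02. Of these 8 markers, 7 had negative differences, 3 had an unadjusted p below 0.05, and 1, Tf, was called lower (-0.55). Summed over the list and given in units of the 75th percentile signal, their level was 5152 to 5921 on the Control and 4609 to 5361 on the Eucommia arrays. Such a sum is led by the brightest probes of a list and does not measure the share of a cell type. The brightest tested marker was Kdr in the endothelial, Cd3d in the lymphocyte and Ctrb1 in the acinar list. All 8 Kupffer cell and macrophage markers had negative differences, 0 of them past the threshold (2 at an unadjusted p below 0.05), with summed levels of 73.7 to 119 and 56.2 to 89.2. Of the endothelial markers 1 of 4 was higher (Cdh5), and 2 had negative differences (Kdr -0.26, Lyve1 -0.17). The endothelial sums were 73.5 to 89.2 on the Control and 65.6 to 76.4 on the Eucommia arrays. Pecam1 was well above background on 0 of the 4 Control arrays. Of the stellate cell markers 1 of 7 was higher (Col1a1) and 2 had negative differences, with sums of 19.6 to 30.6 and 27.0 to 35.4. Of the lymphocyte markers 2 of 6 were higher (Cd3d, Ptprc) and 1 had a negative difference (Cd3e, -0.53). Cd3e was well above background on 1 of the 4 Control and 3 of the 4 Eucommia arrays. The lymphocyte sums were 1.64 to 2.36 and 2.68 to 3.05. Of the cholangiocyte markers 1 of 3 was lower (Epcam) and 1 had a positive difference (Krt19, 0.22), with sums of 1.38 to 2.001 and 1.20 to 1.30. Of the pancreatic acinar markers 1 of 3 was higher (Ctrb1) and 2 had negative differences. The acinar sums were 1.03 to 1.38 and 2.10 to 3.22, and Cpa1, Prss1 and Cela1 did not pass the filter on dim probes. Of the skeletal muscle markers Acta1, Ckm, Myh4 and Tnnt3 did not pass that filter, and the single one tested, Atp2a1, was higher, at 0.106 to 0.160 and 0.228 to 0.279. Beside these marker counts, 18.4% of all features were called higher and 6.17% lower. Of the features brighter than the 75th percentile, 3.73% were called higher and 5.96% lower. The part of these cell types in the difference of Idh3a was not tested.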

How the data were processed

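Liver RNA was hybridised to 8 Agilent 1-colour arrays. The deposited scanner files hold intensity values from Agilent Feature Extraction 10.1.1.1, background-subtracted and detrended within each array and not normalized between arrays, per the file headers. The deposited files also flag control, outlier, saturated and well-above-background spots. Values in the deposited series table matched that signal, to a relative tolerance of 1e-06, for 100% of the 43379 spots that are not controls.

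Log2 signals were reduced by each array's 75th percentile, outlier spots left out and spots of a probe averaged. Probes well above background on at least 4 of 8 arrays were kept (27724 of 41012). Accessions were matched to RefSeq symbols of assembly GRCr8, which named 16336 probes. Coordinates are left out because the probes were designed on a different build. A gene is its brightest probe, and an unnamed probe is its own feature. The comparison of groups used limma 3.58.1 under R 4.3.3 (2-sided, Benjamini-Hochberg over all features, threshold 0.05), and 6 pairs of enzymes by exact permutation over 70 assignments of arrays (fewer where an array was left out). The fit was tested on simulated data.

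The text names all members and, of each other list, up to 4 genes past the threshold or the 2 with the smallest p; Dlst, Dld, Sucla2, Sdhb, Sdhc, Sdhd, Idh1, Ppargc1a and the markers were added after their values were seen, as partners or list members. The values of 1 listed gene are not reported here. Members and lists were chosen with earlier results of these data known. Alternatives changed the scaling, background correction, filter, probe rule, variance, weights, pairing and arrays.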

Additional observations from a re-analysis of the deposited data

Results flagged for a closer look

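Among 22 genes in 2 groups of 4 arrays each (44 sets of values), 1 set held an array far from the others, where chance marks about 1 in 20. Idh3a on Control replicate 1 stood at 0.24, while the other 3 Control arrays lay at 0.04 to 0.05. This array is the Control array nearest to the Eucommia values. Without it the log2 difference of Idh3a was 0.48 in place of 0.43 (adjusted p = 0.0116 by limma).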

How the results depend on the processing

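Features called numbered 6174, and 11742 with median centring, 12769 with no filter on dim probes, 3701 with probes above background on all 8 arrays and 4934 to 5738 without single arrays. Members called numbered 1 and, with median centring, 6 lower, where 31.7% of all features were called lower. They numbered 2 (Idh3a and Idh2) with each probe on its own, and 1 under the other 19 alternatives. The median difference of the members was -0.07, -0.32 with median centring, -0.0067 with cyclic loess and -0.10 to -0.02 without single arrays. Other cycle genes called numbered 0, but 3 with median centring (Sdha, Sdhc, Sdhd), 1 with normexp (Suclg2) and 1 with trended robust variance (Sdha). The same-numbered arrays of the groups did not deviate together (correlations -0.10 to -0.03). The labels do not say whether the number pairs animals, and these correlations cannot decide it. With the replicate block 5137 features passed, and Idh3a kept its call (adjusted p = 0.0481 by limma).

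With the mean over probes the pair changes were 0.57 (Idh3a over Idh3b), 0.47 (Idh3a over Idh3g), -0.72 (Idh2 over Idh3a) and -0.29 (Idh2 over Idh1), each with an adjusted exact permutation p of 0.0429. For the first 3 the unadjusted exact permutation p stayed at 0.0286. Their adjusted p fell because Idh2 over Idh1 also reached 0.0286, which changes the adjustment and not their own values. Without single arrays they ran from 0.52 to 0.64, 0.43 to 0.50, -0.71 to -0.60 and -0.31 to -0.08, and that of Mdh2 over Mdh1 from 0.089 to 0.25. The first 3 and Mdh2 over Mdh1 passed without Eucommia replicate 4 (adjusted exact permutation p = 0.0429). There the unadjusted exact permutation p of the first 3 was 0.0286, the smallest that 3 against 4 arrays allow, and Mdh2 over Mdh1 reached it. The cause of these changes was not tested.

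Signs changed for genes that did not pass in either fit: Cs (0.057 with normexp), Idh3g (0.016 with cyclic loess, -0.13 to 0.013 without single arrays), Suclg1 (0.055 with quantile normalization, 0.034 with cyclic loess, 0.022 with normexp) and Fh (-0.21 with median centring, -0.074 with the mean over probes, -0.011 with array weights, -0.035 to 0.13 without single arrays). The same held for Suclg2 (-0.13) and Aco1 (-0.069) with median centring, Esrra (0.0024 with quantile normalization) and Sdhaf2 (0.012 with quantile normalization, 0.0052 with the percentile taken over probes detected on all arrays, 0.017 with cyclic loess, 0.043 with array weights, -0.056 to 0.033 without single arrays). A slide block was not run, since each slide held 1 group. Fits without an array kept the same features. The number of arrays limits the precision, and Ogdh, at raw signals under 76, is nearest to background.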
